A study of Rattus norvegicus with 48 samples.

Results

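The genes described are 10 regulators of the passage from G1 into S phase and targets of the tumour suppressor p53: the D-type cyclins Ccnd1, Ccnd2 and Ccnd3, the cyclin-dependent kinase (CDK) inhibitors Cdkn1a and Cdkn1b, and the p53 targets Mdm2, Btg2, Gadd45a, Ccng1 and Aen. A gene was taken where a probe set of the array carried its symbol and no other. This found 9 of the 10 genes, on 16 probe sets, out of 14217 genes with such a probe set. Btg2, which restrains entry into S phase, had none and has no values. In each tissue a gene was represented by its probe set with the highest mean. The rats were male Sprague-Dawley animals weighing 300 to 400 g that swallowed RDX, a nitramine explosive, once in a gel capsule, at doses set low enough to avoid seizures. Liver and brain cortex were taken at 0, 4, 24 and 48 h after 3 mg/kg or 18 mg/kg, with 3 arrays for each of the 16 groups and 48 arrays in all. Comparisons run between a later group and the 0 h group that shares its tissue and dose, because the labels give no vehicle arm at later times. Nothing in the labels ties an array to a separate animal, so p-values measure only the spread between arrays, and the clock time of dissection is not given.

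D-type cyclins bind CDK4 and CDK6 and start the phosphorylation of the retinoblastoma protein, which releases E2F factors and lets a cell copy its DNA. Cdkn1a (p21) and Cdkn1b (p27) hold CDK2 complexes inactive. When DNA is damaged p53 is stabilised and transcribes Cdkn1a, which arrests the cycle, together with Mdm2, whose product in turn degrades p53. Hepatocytes of adult liver are mostly quiescent, and Cdkn1a and Ccnd1 are the genes of the set best known for holding them there or letting them re-enter the cycle after injury. Neurons have left the cycle. The question put to the values was whether these upstream genes moved before or with the mitotic genes, which were lower in liver at 48 h after 18 mg/kg.

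Promoters of 8 of the 10 genes were in the RefSeq table for rat assembly GRCr8, each as the 250 bases before and the 50 bases after the gene start given there. They were searched on both strands for the p53 consensus, which consists of a 10-base unit and a second one beside it and reads the same on both strands. A window with 2 adjoining units, at most 2 of the 20 letters off the consensus, was present in 239 of 27457 promoters, 0.87%. The allowance of 2 letters was chosen after the sequences had been looked at. Of the 8 promoters, 3 held one, and they are shown because they carry the published p53 consensus within the window. The site is in capitals and starts at position -201 (Cdkn1a), -242 (Ccng1) and -30 (Aen) from the gene start, with 1, 1 and 2 letters off. The windows lie at chr20:7150682-7150981 on the plus strand, chr10:25684827-25685126 on the minus strand and chr1:142224283-142224582 on the plus strand.
Cdkn1a: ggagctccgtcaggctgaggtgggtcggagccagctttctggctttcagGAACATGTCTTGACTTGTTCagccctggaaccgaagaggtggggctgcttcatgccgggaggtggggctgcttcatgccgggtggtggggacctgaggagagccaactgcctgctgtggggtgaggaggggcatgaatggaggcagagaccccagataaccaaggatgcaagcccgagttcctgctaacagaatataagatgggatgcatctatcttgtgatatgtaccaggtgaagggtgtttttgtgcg
Ccng1: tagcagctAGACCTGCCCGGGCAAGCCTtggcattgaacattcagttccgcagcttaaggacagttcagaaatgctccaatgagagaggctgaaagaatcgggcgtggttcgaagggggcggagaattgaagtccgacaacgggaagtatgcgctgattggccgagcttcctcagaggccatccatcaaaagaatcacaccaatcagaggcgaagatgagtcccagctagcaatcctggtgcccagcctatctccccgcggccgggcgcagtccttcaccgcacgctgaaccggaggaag
Aen: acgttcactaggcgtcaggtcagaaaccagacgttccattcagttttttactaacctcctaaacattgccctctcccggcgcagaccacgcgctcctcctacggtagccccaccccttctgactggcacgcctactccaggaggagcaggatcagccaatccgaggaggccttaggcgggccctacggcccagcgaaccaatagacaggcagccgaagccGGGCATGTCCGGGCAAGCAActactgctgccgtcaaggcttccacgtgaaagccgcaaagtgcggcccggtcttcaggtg
A single 10-base unit with no letter off was in 7.89% of promoters and, outside these 3, in that of Gadd45a. The windows of Ccnd3, Cdkn1b, Mdm2 and Btg2 held neither form.

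All values are log2 RMA values as deposited, so a difference of 1 is a 2-fold difference, and values of different probe sets are not compared with each other. Array means lay between 6.737 and 6.741. In liver, 2 arrays stood apart. The SD over all probe sets was 1.49 in the 3 mg/kg 0 h array 2 and 1.38 in the 18 mg/kg 4 h array 1, against 1.82 to 2.08 in the other 22 liver arrays. The 6 measured hepatocyte markers averaged 12.36 and 10.88 in these arrays and 13.32 to 13.84 in the others. The lowest of the 24 liver values of Ccnd1, Cdkn1a, Cdkn1b, Ccng1 and Aen was in the 18 mg/kg array, and those of Mdm2 and Gadd45a were in the 3 mg/kg array, as the plot of liver values shows. They are called the compressed arrays here, and the results that turn on them are given with and without them. Bulk tissue cannot tell fewer cells of a type from less RNA per cell.

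**Figure D1:**
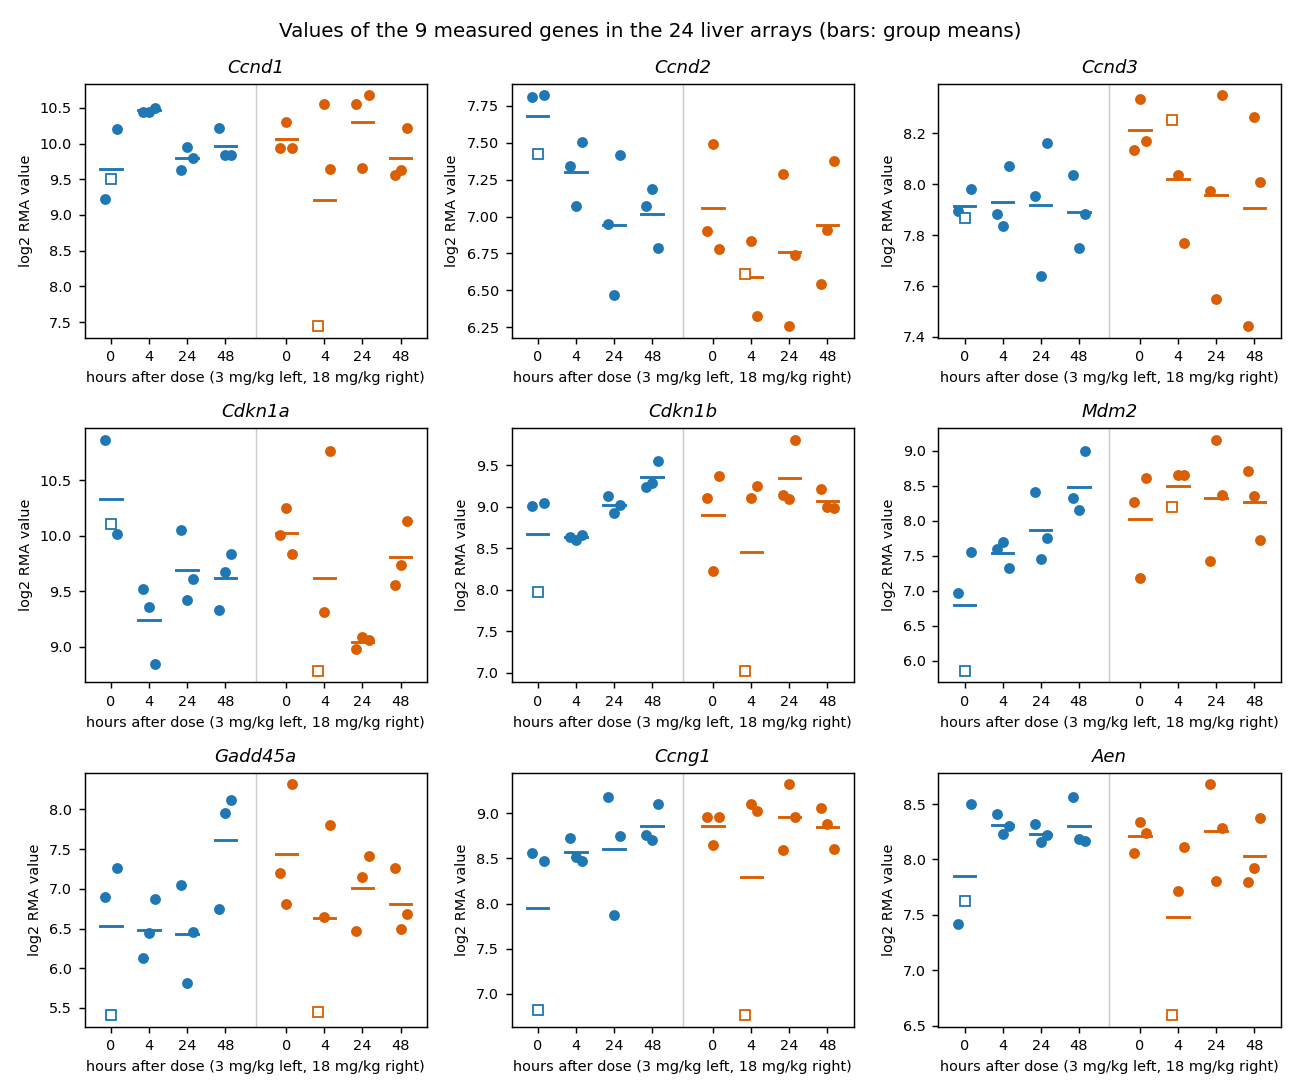
Log2 RMA values of the 9 measured genes in the 24 liver arrays, by hours after dose, 3 mg/kg in blue and 18 mg/kg in orange; short bars are group means of 3 arrays and open squares the 2 compressed arrays. Cdkn1a lies lower in the later groups than at 0 h except for a few arrays, and Mdm2 at 3 mg/kg lies highest at 48 h.

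Among the 9 genes and the 6 liver comparisons a single change passed the test (limma, two-sided, Benjamini-Hochberg over 31042 probe sets, adjusted p below 0.05): Mdm2 was higher at 48 h after 3 mg/kg. Over all probe sets, 9.34% passed in that comparison, 6% as higher and 3.33% as lower. The 2898 probe sets behind that share were 0 with both 0 h groups pooled and 0 to 7764 when single arrays were left out, and without the compressed arrays 878 passed as higher and 494 as lower. No member passed in the other 5, where 0.0226% of all probe sets passed at 4 h and 0% at 24 h after 3 mg/kg, and 0.0258%, 0% and 0.0966% at 4, 24 and 48 h after 18 mg/kg. At an unadjusted p below 0.05 there were 1, 2 and 2 of the 9 genes at 4, 24 and 48 h after 3 mg/kg, where 14.2%, 20% and 32% of all probe sets were so, and 1, 1 and 0 after 18 mg/kg, against 11.4%, 2.43% and 1.67%. The members' shares were near those of all probe sets in most comparisons.

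Ccnd1, the D-type cyclin that hepatocytes induce when they re-enter the cycle, had 10.44, 10.45 and 10.50 at 4 h after 3 mg/kg, against 9.22, 9.50 and 10.20 at 0 h. All 3 arrays at 4 h lay above all 3 at 0 h, and the log2 difference was 0.83 (SE 0.47, adjusted p = 0.41), or 0.76 without the compressed arrays. At 24 and 48 h it had 9.63 to 9.95 and 9.83 to 10.22, within or near the 0 h range, with differences of 0.16 and 0.33. After 18 mg/kg its values were 7.45, 10.55 and 9.65 at 4 h, against 9.93, 10.30 and 9.94 at 0 h. The lowest was the compressed array, and the difference was -0.84 with it and 0.04 without it. At 24 and 48 h after 18 mg/kg Ccnd1 had 9.66 to 10.68 and 9.56 to 10.22, and the differences were 0.24 and -0.26. The groups overlapped at all 3 times.

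The other Ccnd1 probe sets did not all follow the one with the highest mean at 3 mg/kg. The second had 7.76, 7.86 and 7.14 at 48 h after 3 mg/kg, against 8.41, 9.54 and 8.39 at 0 h, and fell by 1.19 (adjusted p = 0.0498). It was also lower at 24 h, by a log2 change of -1.27 (adjusted p = 0.103), with no overlap. The highest of its 0 h values was the compressed array, and without the compressed arrays the 48 h difference was -0.81 (adjusted p = 0.165). The third differed from 0 h by 0.47 at 48 h (adjusted p = 0.549), in the direction of the first. The direction for Ccnd1 at 48 h after 3 mg/kg thus turned with the probe set.

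Ccnd2, another D-type cyclin, had 6.95, 6.47 and 7.42 at 24 h after 3 mg/kg, against 7.81, 7.42 and 7.82 at 0 h, a log2 difference of -0.74 (SE 0.29, adjusted p = 0.164). At 48 h it had 7.07, 7.19 and 6.79, a difference of -0.67 (adjusted p = 0.116). At both times every later array lay below every 0 h array, and without the compressed 0 h array the differences were -0.87 and -0.80. After 18 mg/kg Ccnd2 had 6.32 to 6.84 at 4 h, 6.26 to 7.29 at 24 h and 6.54 to 7.38 at 48 h, against 6.78 to 7.49 at 0 h, and the groups overlapped. Ccnd3, the third D-type cyclin, stayed between 7.64 and 8.16 in the 12 arrays of 3 mg/kg and between 7.44 and 8.35 in those of 18 mg/kg. None of its comparisons reached an unadjusted p below 0.05 in liver.

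Cdkn1a lay below its 0 h mean at all 3 times after both doses. At 4 h after 3 mg/kg it had 9.52, 9.36 and 8.84, against 10.87, 10.11 and 10.02 at 0 h. The groups did not overlap, and the log2 difference was -1.09 (SE 0.35, 95% interval -1.81 to -0.36, adjusted p = 0.264), or -1.20 without the compressed 0 h array. At 24 h it had 10.05, 9.42 and 9.61 (difference -0.64) and at 48 h 9.33, 9.68 and 9.84 (difference -0.71, no overlap, adjusted p = 0.163). After quantile normalisation the 48 h difference was -1.19 and passed (adjusted p = 0.0348). Without the compressed arrays it was -0.83 and did not pass (adjusted p = 0.13). After 18 mg/kg its values were 8.79, 9.32 and 10.76 at 4 h, 8.98, 9.08 and 9.06 at 24 h and 9.56, 9.74 and 10.14 at 48 h, against 10.01, 10.25 and 9.83 at 0 h. The 24 h arrays lay close together and below every 0 h array.

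The Cdkn1a difference at 24 h after 18 mg/kg was -0.99 (SE 0.35), with an unadjusted p of 0.00989 and an adjusted p of 1. At 4 h it was -0.41 with the compressed array and 0.01 without it. At 48 h, when the mitotic genes were lowest, it was -0.22 with a 95% interval of -0.94 to 0.51. With all 6 later groups set against both 0 h groups, a contrast added after the values were seen, Cdkn1a differed by -0.68 (95% interval -1.09 to -0.26, adjusted p = 0.146), and by -0.66 without the compressed arrays. In that contrast 0.0483% of all probe sets passed and no member did, while 3 of 9 members, against 15.1% of all probe sets, had an unadjusted p below 0.05. The second Cdkn1a probe set was dim in liver, with a mean of 5.49 over the 24 arrays, and differed from 0 h by between -0.70 and -0.01 in the 6 comparisons.

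Cdkn1b, the inhibitor that accumulates in quiescent cells, had 9.24, 9.28 and 9.56 at 48 h after 3 mg/kg, against 9.01, 7.97 and 9.04 at 0 h. The groups did not overlap, and the lowest 0 h value was the compressed array. Its adjusted p at that time was 0.248, and without the compressed arrays the difference was 0.33 (adjusted p = 0.429). In the 18 mg/kg arm Cdkn1b ranged over 7.02 to 9.25 at 4 h, 9.10 to 9.81 at 24 h and 8.98 to 9.21 at 48 h, against 8.23 to 9.37 at 0 h, and every group overlapped 0 h.

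Mdm2, the ubiquitin ligase that p53 both induces and is degraded by, had 8.32, 8.15 and 8.99 at 48 h after 3 mg/kg, against 6.97, 5.86 and 7.56 at 0 h. It rose 3.24-fold, a log2 change of 1.69 (SE 0.44, 95% interval 0.78 to 2.60, adjusted p = 0.0286). Its values at 4 and 24 h were 7.33 to 7.70 and 7.46 to 8.41, with changes of 0.75 and 1.08 (adjusted p = 0.418 and 0.183). Without the compressed arrays these 2 changes were 0.28 and 0.61 (adjusted p = 0.887 and 0.545). The call rested on a few arrays. Without the compressed 0 h array the change was 1.23 (adjusted p = 0.225 with that array alone left out, 0.0939 with both compressed arrays left out), and without any one of the 48 h arrays it was 1.44 to 1.86 (adjusted p = 0.0526 to 0.134).

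Against both 0 h groups pooled, the Mdm2 change at 48 h after 3 mg/kg was 1.08 (adjusted p = 0.45). In the 18 mg/kg arm Mdm2 had 8.27, 7.19 and 8.61 at 0 h. Its later values there were 8.19 to 8.65 at 4 h, 7.43 to 9.16 at 24 h and 7.73 to 8.72 at 48 h, and its differences of 0.48, 0.30 and 0.24 were within the spread between arrays. The other Mdm2 probe sets differed at 48 h after 3 mg/kg by 0.62 (the second, adjusted p = 0.118) and 0.12 (the third, which is dim with a mean of 4.94, adjusted p = 0.734). The summed level of the hepatocyte markers was 16.37 to 16.39 at 48 h after 3 mg/kg and 15.30 to 16.30 at 0 h. That of 7 measured macrophage markers was 13.22 to 13.28 at 48 h and 11.98 to 12.98 at 0 h. Stellate, endothelial and red cell markers were 11.89 to 12.38, 12.36 to 12.47 and 13.26 to 13.33 at 48 h. At 0 h they were 9.65 to 11.55, 10.99 to 12.24 and 11.21 to 12.99. T, B or NK cell markers were 8.93 to 9.13 at 48 h and 8.93 to 9.45 at 0 h. In the compressed 0 h array the hepatocyte markers averaged 12.36, against 13.32 and 13.66 in the others of its group. The part of these cell markers in the Mdm2 change was not tested. Over the 24 liver arrays the genes whose log2 values followed Mdm2 most closely were Sec24d (Pearson r = 0.966), Trappc8 (0.962) and Rheb (0.95), and without the compressed arrays these were 0.963, 0.94 and 0.922. The correlations are a description over arrays that share groups and array quality.

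Gadd45a, a stress-induced inhibitor of CDK1, had 6.75, 7.96 and 8.12 at 48 h after 3 mg/kg, against 6.90, 5.41 and 7.27 at 0 h, and the groups overlapped (adjusted p = 0.167). Without the compressed 0 h array, the lowest of these values, the difference was 0.53 (adjusted p = 0.515). After 18 mg/kg it had 5.45 to 7.80, 6.47 to 7.41 and 6.49 to 7.26 at 4, 24 and 48 h, against 6.81 to 8.32 at 0 h. Ccng1, an atypical cyclin and p53 target, had 8.76, 8.70 and 9.10 at 48 h after 3 mg/kg, against 8.56, 6.82 and 8.47 at 0 h (no overlap, adjusted p = 0.192). The 0 h value of 6.82 was the compressed array, and without the compressed arrays the difference was 0.34 (adjusted p = 0.465). After 18 mg/kg Ccng1 stayed between 8.59 and 9.32 outside the compressed array, which had 6.76, and the groups overlapped.

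Aen, a nuclease that p53 induces in apoptosis, had 6.59, 7.72 and 8.12 at 4 h after 18 mg/kg, against 8.06, 8.34 and 8.24 at 0 h. The difference was -0.73 (SE 0.32, adjusted p = 0.435), and -0.29 without the compressed array. After 3 mg/kg its values lay between 8.16 and 8.57 at the 3 later times, against 7.41 to 8.50 at 0 h. The genes whose promoters are printed all had means below 0 h at 4 h and at 48 h after 18 mg/kg, Ccng1 at 48 h by -0.00332. This was not particular to them. Of all 9 measured genes 8 lay below 0 at 4 h and 7 at 48 h, while 58.1% and 51% of all probe sets lay above 0. None of the genes with printed promoters passed, and at 4 h the compressed array was the lowest for each. Without that array the 4 h differences were 0.01 for Cdkn1a, 0.21 for Ccng1 and -0.29 for Aen, so only Aen stayed below 0 h. At 24 h after 18 mg/kg Cdkn1a lay below all 0 h arrays, while Ccng1 (8.59 to 9.32, against 8.65 to 8.96) and Aen (7.81 to 8.68, against 8.06 to 8.34) spanned theirs.

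Counted over the 9 genes, later arrays lay wholly above or below 0 h for 2 genes at 4 h, 1 at 24 h and 5 at 48 h after 3 mg/kg, and for 0, 1 and 0 genes at these times after 18 mg/kg. Over all probe sets the share was 20.6%, 18.9% and 36.3% after 3 mg/kg and 11.4%, 9.74% and 9.54% after 18 mg/kg. The 5 genes at 48 h after 3 mg/kg make up a larger share of 9 than the background, and that difference was not tested. In the 3 mg/kg arm the 5 genes at 48 h were Cdkn1b, Mdm2 and Ccng1 above and Ccnd2 and Cdkn1a below 0 h.

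The doses were then compared directly. A moderated F test of whether the change over time differed between 18 and 3 mg/kg passed for no member in liver (smallest adjusted p = 0.515) and for 0.00966% of all probe sets. A test of any change over the 6 comparisons also passed for none (smallest adjusted p = 0.326, Cdkn1a), against 0.148%. At 0 h the 18 mg/kg group differed from the 3 mg/kg group by 1.23 in Mdm2 (adjusted p = 0.137) and by -0.63 in Ccnd2 (adjusted p = 0.211), with 0% of probe sets passing and 21.4% at an unadjusted p below 0.05. The 3 mg/kg 0 h group holds the compressed array with the lowest Mdm2 value, 5.86. Between successive times no member passed either. Of all probe sets 0.00966% passed at 24 h against 4 h and 0% at 48 h against 24 h after 3 mg/kg, and 0.00322% and 0% after 18 mg/kg. At an unadjusted p below 0.05 there were 0, 1, 3 and 1 members in these 4 comparisons, against 3.75%, 2.32%, 7.68% and 1.85% of all probe sets.

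**Figure D2:**
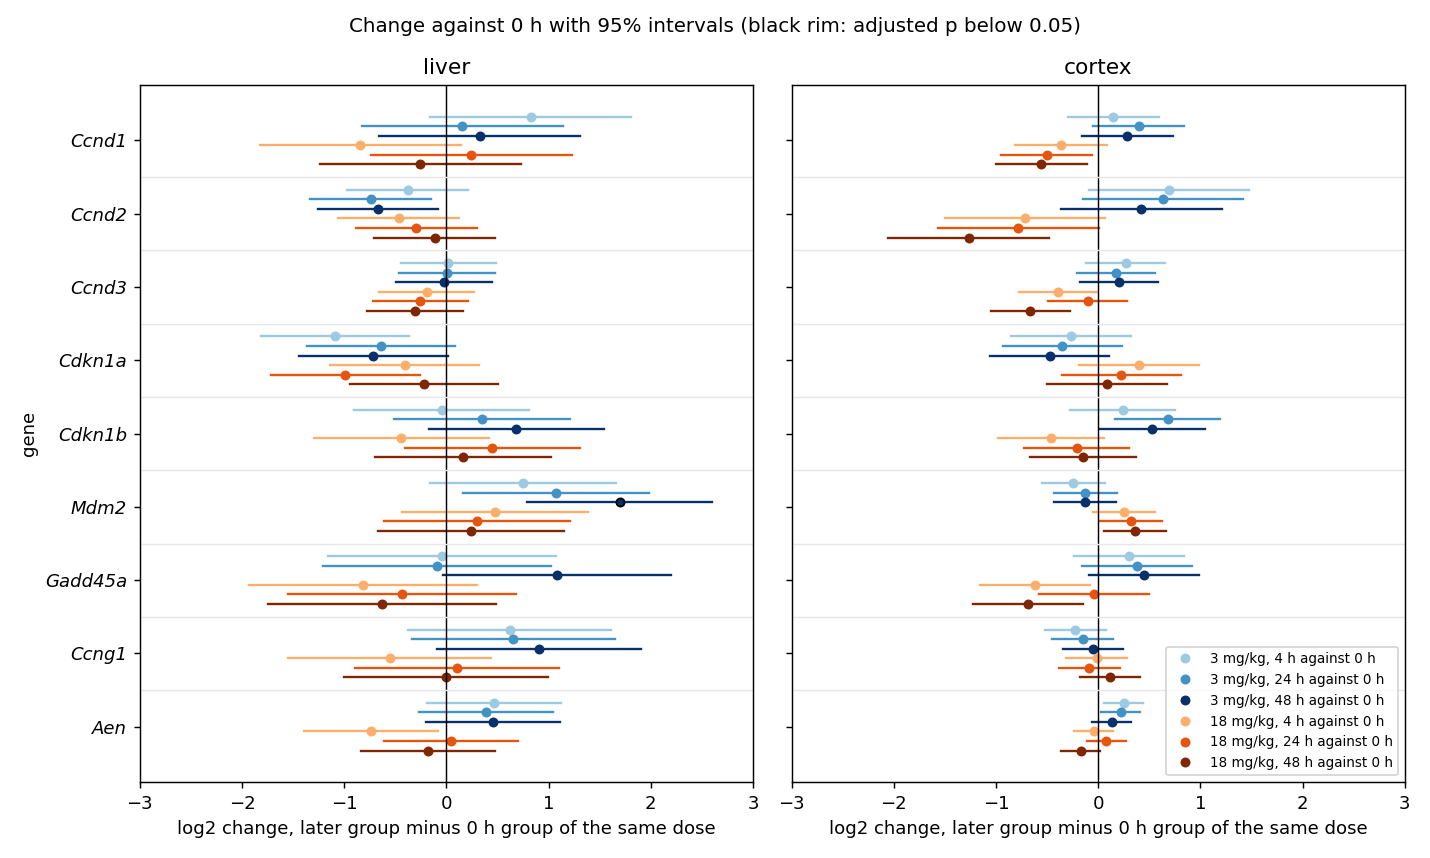
Log2 change of each gene against the 0 h group of the same dose with its 95% interval, liver left and cortex right, in 6 comparisons per gene (3 mg/kg in blues, 18 mg/kg in oranges, darker at later times). Mdm2 at 48 h after 3 mg/kg in liver, at 1.69, is the one point whose adjusted p is below 0.05.

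Other genes of the pathway came from lists chosen by function, with earlier results of these data known. Of 24 measured G1/S kinases, E cyclins, Rb and E2F genes, 3 rose and 2 fell at 48 h after 3 mg/kg, and none passed in the other 5 liver comparisons. The 5 called of 24 stand beside 9.34% of all probe sets called there. Without the compressed arrays 1 rose and 1 fell, but none of the 3 genes that rose in the main fit passed then. With both 0 h groups pooled no gene of the list passed. The list's median change there was 0.43, against -0.16 over all probe sets. E2f6, a repressive E2F, had a mean of 8.09 ± 0.29 at 48 h and 6.76 ± 0.52 at 0 h (SD, n = 3 each), a change of 1.33 (limma adjusted p = 0.026). Tfdp1, the partner of E2F factors, changed by 1.12 (adjusted p = 0.0286), and Rbl2, a relative of the retinoblastoma protein that represses E2F targets in quiescent cells, by 1.18 (adjusted p = 0.0296). Ccne1, the cyclin that activates CDK2 late in G1, fell by 0.94 (adjusted p = 0.0291). Without the compressed arrays the adjusted p was 0.0669 for E2f6, 0.0808 for Tfdp1, 0.0786 for Rbl2 and 0.047 for Ccne1.

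Of 27 other measured p53 targets and regulators, 3 rose at 48 h after 3 mg/kg and none fell, against 6% of all probe sets called higher, with a list median of -0.01. Perp, a membrane effector of p53, changed by 1.69 (adjusted p = 0.026), Bbc3, a pro-apoptotic BH3-only protein, by 1.20 (adjusted p = 0.0272), and Triap1, an inhibitor of apoptosome formation, by 1.68 (adjusted p = 0.0498). In the 0 h group of that arm these 3 genes had SDs of 1.43, 0.85 and 1.24, the group that holds a compressed array. Without the compressed arrays Perp changed by 0.87 (adjusted p = 0.0367), Bbc3 by 0.74 (adjusted p = 0.0658) and Triap1 by 0.97 (adjusted p = 0.11), and with both 0 h groups pooled no gene of the list passed. After 18 mg/kg no gene of the list passed at any time, and the median change was -0.30, 0.06 and -0.09 at 4, 24 and 48 h, against 0.08, 0.00 and 0.00 over all probe sets. Of 8 measured relatives of Ccng1, Gadd45a and Btg2, none passed in liver. Of 6 further CDK inhibitors 1 passed, Cdkn3 at 48 h after 18 mg/kg, where 0.0966% of all probe sets passed. Cdkn3, a phosphatase acting on CDKs, had 6.36 ± 0.88 at that time and 8.95 ± 0.27 at 0 h (SD, n = 3 each) and fell by 2.59 (limma adjusted p = 0.0127). The mitotic genes fell in the same comparison.

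The mitotic genes fell in liver at 48 h after 18 mg/kg, where 21 of 40 measured members of the list passed as lower, against 0.0966% of all probe sets passing as lower. The list was chosen with earlier results of these data known, so the count describes the fall and does not test it. All 40 lay below 0, with a median change of -1.47, and the median over all probe sets was 0.00. Ect2, Racgap1 and Prc1, which build the cleavage furrow, fell by 2.88, 2.40 and 2.02 (adjusted p = 0.000146, 0.000611 and 0.00473), and Mki67, the proliferation marker, fell by 2.59 (adjusted p = 0.0011). The count depended on single arrays, with 3 genes left when either the second 0 h array or the second 48 h array of that arm was left out, 10 without either other 0 h array or the third 48 h array, and 15 without the first 48 h array. Averaged over the list, the arrays had 5.95, 5.48 and 5.79 at 48 h, against 7.19, 7.61 and 7.04 at 0 h. At 24 h the means were 6.17, 6.71 and 6.16 and at 4 h 7.05, 6.58 and 6.89. The list median was -0.45, -0.99 and -1.47 at 4, 24 and 48 h.

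Among the members, the Ccnd3 means after 18 mg/kg had the same order of times. They were 8.02, 7.96 and 7.91 at 4, 24 and 48 h, against 8.21 at 0 h, with none passing. Without the compressed arrays the Ccnd3 differences were -0.31, -0.26 and -0.31 at 4, 24 and 48 h, so that order was not kept. Cdkn1a was lowest at 24 h, the step before the lowest mitotic means, and at 48 h it had 9.56 to 10.14, against 9.83 to 10.25 at 0 h. Ccnd1 overlapped 0 h at all 3 times. Of the 9 genes, 7 lay below and 2 above 0 at 48 h after 18 mg/kg, with a median of -0.18. Ccng1, at -0.00332, was among the 7, and no member had an unadjusted p below 0.05 (limma). Of all probe sets 51% lay above 0 there, with a median of 0.00, and the difference from this background was not tested. After 3 mg/kg the mitosis list had medians of -0.65, 0.31 and -0.31 at 4, 24 and 48 h, with 3 members passing as lower at 48 h, 1 without the compressed arrays and 0 with both 0 h groups pooled. Its array means at 4 h were 6.67, 6.68 and 6.56, against 6.95, 7.25 and 7.81 at 0 h, the same time at which Cdkn1a was lowest and Ccnd1 highest in that arm. Of 27 measured S phase genes, 2 fell at 48 h after 3 mg/kg (Tyms by 0.96 and Cdc45 by 0.84, adjusted p = 0.0402 and 0.0441), against 3.33% of all probe sets called lower. Neither passed without the compressed arrays (adjusted p = 0.0696 and 0.0742) or with both 0 h groups pooled. None of the list passed after 18 mg/kg, where the median at 48 h was -0.33. Summed hepatocyte markers were 16.33 to 16.39 at 48 h after 18 mg/kg and 16.25 to 16.45 at 0 h.

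**Figure D3:**
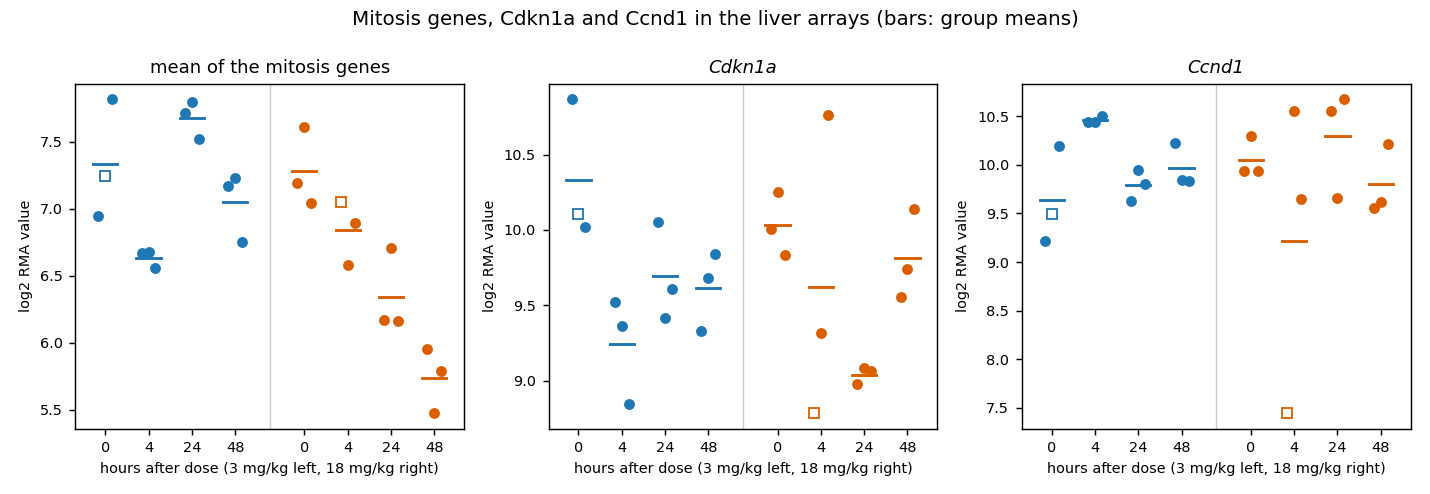
Mean of 40 mitotic genes (left), Cdkn1a (middle) and Ccnd1 (right) in the liver arrays, in log2 RMA values by hours after dose, 3 mg/kg in blue and 18 mg/kg in orange; short bars are group means and open squares the compressed arrays. The mitotic means at 48 h after 18 mg/kg, 5.48 to 5.95, lie below all others, while Cdkn1a and Ccnd1 at that time overlap 0 h.

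Clock genes passed at 4 h in liver in both arms. Per3 differed by 1.89 after 3 mg/kg and 1.84 after 18 mg/kg (adjusted p = 0.0061 and 0.00712), Nr1d1 by 3.21 and 3.15 (0.0108 and 0.016) and Cry1 by -1.77 and -2.01 (0.0144 and 0.00712). Nr1d2 passed after 3 mg/kg (2.91, adjusted p = 0.0108). Without the compressed arrays Cry1 after 3 mg/kg had an adjusted p of 0.0564 and the other calls were kept. Cdkn1a and the mitotic genes were also lower at 4 h after 3 mg/kg, without passing. Time of day and time after dosing cannot be told apart, since the groups have no vehicle arm. Of 9 measured glucocorticoid-induced genes all lay above 0 at 4 h after 3 mg/kg, with a median of 0.57 and none passing. Over all probe sets 43% lay above 0 there, with a median of -0.08. At 4 h after 18 mg/kg 5 of the 9 lay above 0, with a median of 0.16 and a lowest change of -1.63, and none passed. There 58.1% of all probe sets lay above 0, with a median of 0.08. At 48 h after 3 mg/kg 1 of the 9 genes, the metallothionein Mt1, fell by 1.80 (adjusted p = 0.0262, and 0.0506 without the compressed arrays).

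In cortex no member passed in any of the 6 comparisons. Over all probe sets 0%, 0.0741% and 0% passed at 4, 24 and 48 h after 3 mg/kg and 0%, 0% and 0% after 18 mg/kg. At an unadjusted p below 0.05 there were 1, 2 and 1 members after 3 mg/kg (12.6%, 14.4% and 13% of all probe sets) and 2, 2 and 5 after 18 mg/kg (11%, 5.99% and 16.6%). At 48 h after 18 mg/kg Ccnd2 had 6.95, 6.16 and 7.20, against 8.30, 8.60 and 7.22 at 0 h. The difference was -1.27 (SE 0.38, adjusted p = 0.125), with no overlap. Ccnd3 had 7.61, 7.98 and 7.08, against 8.28, 8.39 and 7.99, a difference of -0.66 (adjusted p = 0.112), also with no overlap.

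Ccnd1 had 7.82, 9.03 and 8.0 in cortex at 48 h after 18 mg/kg, against 8.88, 8.92 and 8.71 at 0 h. Its difference was -0.55 there (adjusted p = 0.208) and -0.51 at 24 h (adjusted p = 0.821). Gadd45a had 6.37, 6.73 and 6.34 at 48 h, against 7.48, 7.45 and 6.57, a difference of -0.69 (adjusted p = 0.195), and -0.62 at 4 h (adjusted p = 0.451). Both genes had 1 array that overlapped the other group. Mdm2 ran the other way, with 9.07, 8.72 and 9.03 at 48 h, against 8.48, 8.54 and 8.72, a difference of 0.36 (adjusted p = 0.226) after 0.32 at 24 h (adjusted p = 0.824). The other Mdm2 probe sets differed by -0.25 (the second) and -0.45 (the third, which is dim) at 48 h, so the direction turned with the probe set. Ccnd3 differed by -0.39 at 4 h (adjusted p = 0.451). When arrays were weighted by their own spread, 6 members passed at 4 h and 6 at 48 h after 18 mg/kg. All probe sets passing then numbered 7759 and 5547. Leaving out single arrays gave 0 to 2146 passing probe sets at 48 h, and 3 members passed there without the second 48 h array. Without that array Ccnd1 and Ccnd3 differed by -0.93 and -0.87 (adjusted p = 0.00326 and 0.00888), and without the third 0 h array Ccnd2 and Gadd45a differed by -1.68 and -0.99 (adjusted p = 0.0414 and 0.0497).

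After 3 mg/kg Cdkn1b had 10.55, 10.43 and 10.22 in cortex at 24 h and 10.43, 10.17 and 10.16 at 48 h, against 9.60, 9.55 and 10.01 at 0 h. The differences were 0.68 and 0.53 (adjusted p = 0.235 and 0.376), and neither group overlapped 0 h. Aen differed by 0.25 at 4 h and 0.22 at 24 h (adjusted p = 0.357 and 0.291). Cdkn1a stayed between 7.34 and 8.21 after 3 mg/kg and between 7.61 and 8.93 after 18 mg/kg, and Ccng1 between 10.58 and 11.19 in all 24 arrays. Later arrays lay wholly above or below 0 h for 1, 3 and 2 members at 4, 24 and 48 h after 3 mg/kg and for 1, 1 and 3 after 18 mg/kg, against 16.1%, 19.6% and 20.6%, and 17%, 8.91% and 14.8%, of all probe sets. The difference between the members' shares and the background was not tested.

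**Figure D4:**
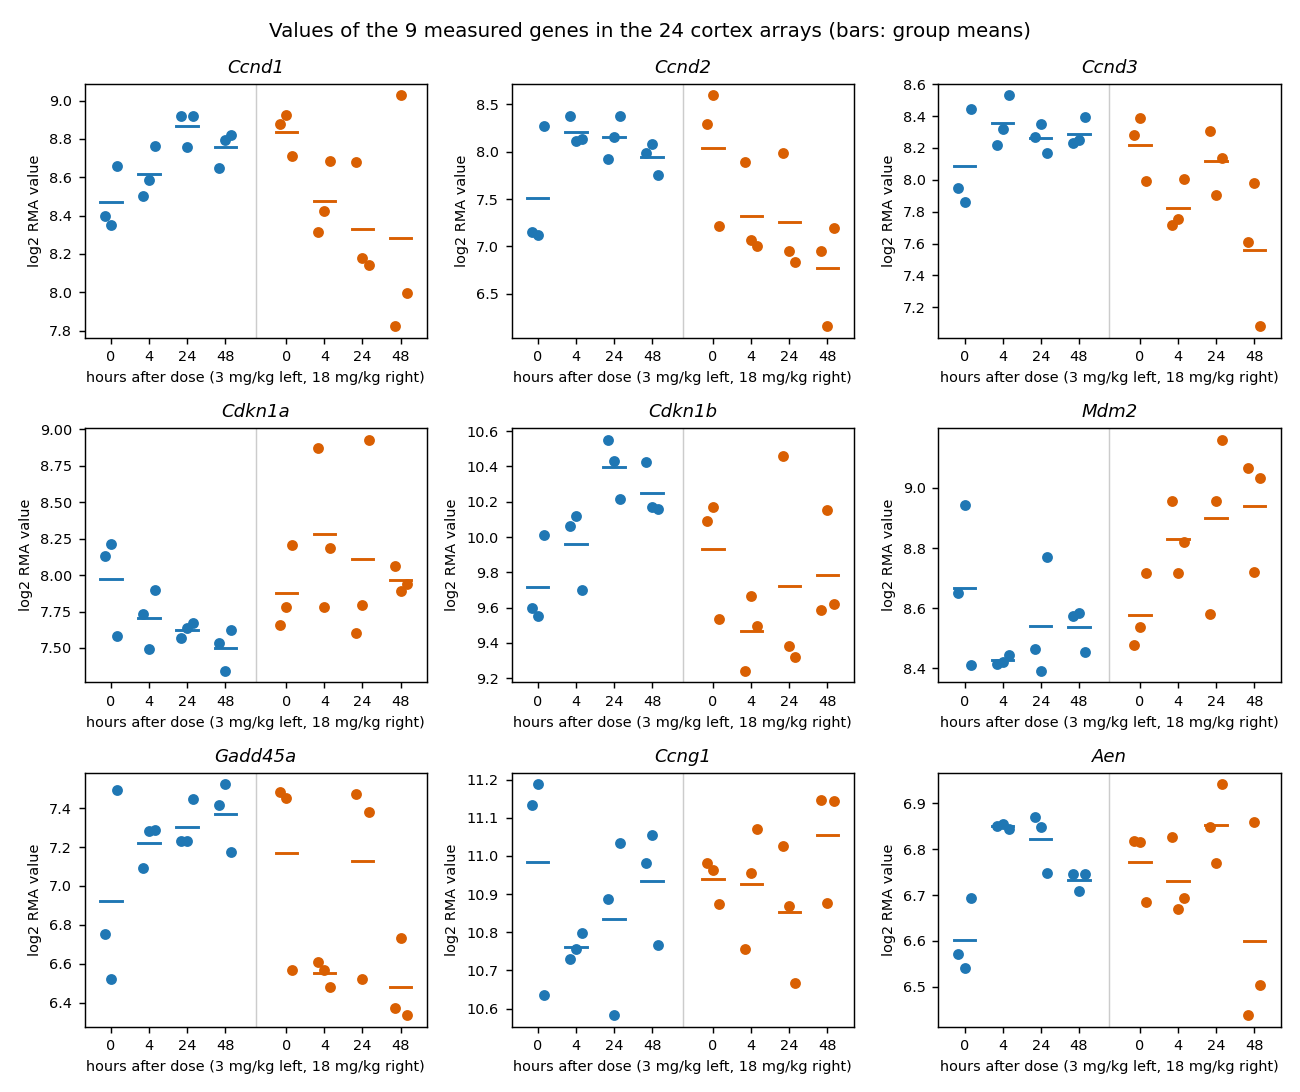
Log2 RMA values of the 9 measured genes in the 24 cortex arrays by hours after dose, 3 mg/kg in blue and 18 mg/kg in orange, with group means of 3 arrays as short bars. Ccnd2 at 48 h after 18 mg/kg, 6.16 to 7.20, lies below its 0 h arrays at 7.22 to 8.60, and 1 of those 0 h arrays lies far below the other 2.

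The cortex values moved with a measure of RNA integrity. The gap between the 3' and 5' actin control probe sets, which grows as RNA breaks down, exceeded 3 in 10 of the 24 cortex arrays. They were 3 of 3 arrays at 4 h, 2 of 3 at 24 h and 2 of 3 at 48 h after 18 mg/kg, against 1 of 3 at 0 h. In the 3 mg/kg arm they were 0 of 3 at each later time, against 2 of 3 at 0 h. Cdkn1b had 9.24 to 9.67 in these 10 arrays and 9.70 to 10.55 in the other 14, with no overlap. Gadd45a had a median of 6.55 in these arrays and 7.35 in the others, Ccnd2 7.09 and 8.12, Ccnd3 7.88 and 8.29, and Ccnd1 8.33 and 8.78. Mdm2 had 8.95 and 8.47, and Cdkn1a 8.16 and 7.63, so they lay higher in the arrays with the larger gap. Over the 24 arrays the gap correlated with Ccnd3 (r = -0.87), Gadd45a (-0.865), Mdm2 (0.855), Ccnd1 (-0.795), Cdkn1b (-0.785) and Ccnd2 (-0.747), which describes arrays that share groups. With the gap as a covariate in the fit, the differences at 48 h after 18 mg/kg were -0.84 for Ccnd2, -0.31 for Ccnd3, -0.14 for Ccnd1, -0.16 for Gadd45a and 0.11 for Mdm2 (adjusted p = 0.448, 0.429, 0.798, 0.787 and 0.796). Those of Cdkn1b after 3 mg/kg were 0.39 at 24 h and 0.33 at 48 h (adjusted p = 0.53 and 0.495). In liver the gap exceeded 3 in 18 of the 24 arrays, among them the 3 mg/kg 0 h arrays at 4.38, 3.29 and 3.88. It was 0.62 in the compressed 18 mg/kg array. Over the liver arrays, compressed ones included, its correlation with the members ran from -0.339 (Mdm2) to 0.619 (Ccnd1). Hepatocyte markers differed between the cortex arrays as well. Averaged over the 6 markers, the arrays had 6.73, 11.26 and 11.77 at 48 h after 18 mg/kg, against 7.54, 6.88 and 8.51 at 0 h. Single arrays of other groups were high too. They had 10.74 at 4 h and 9.03 at 48 h after 3 mg/kg, and 10.75 at 4 h and 9.23 at 24 h after 18 mg/kg. At 48 h after 18 mg/kg all 6 markers lay above 0, with a median change of 2.75 and none passing. With their mean as a covariate in the fit, the differences at that time were -1.27 for Ccnd2, -0.60 for Ccnd3, -0.64 for Ccnd1, -0.71 for Gadd45a and 0.43 for Mdm2, and none passed.

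**Figure D5:**
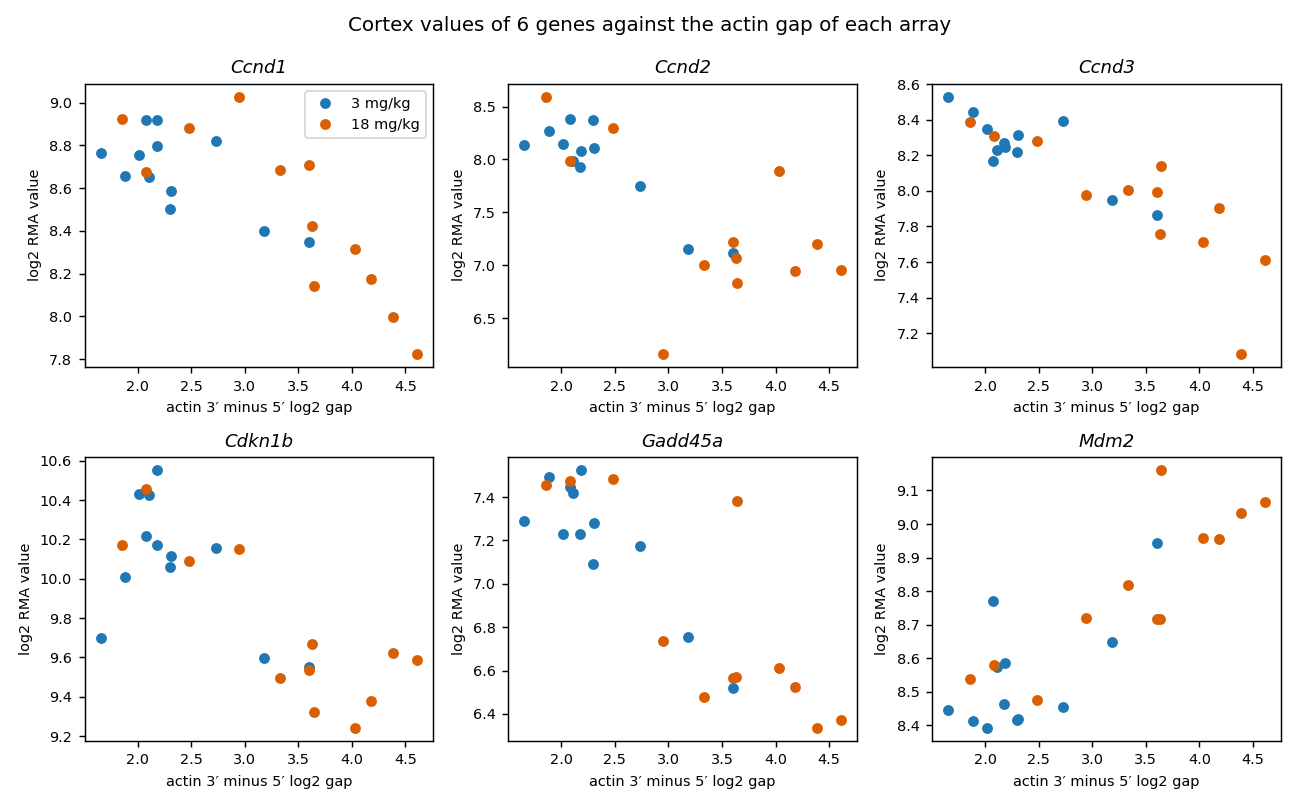
Log2 RMA values of 6 genes in each cortex array (3 mg/kg blue, 18 mg/kg orange) against the array's actin 3' minus 5' log2 gap. Ccnd1, Ccnd2, Ccnd3, Cdkn1b and Gadd45a have lower medians and Mdm2 a higher one in the 10 arrays with a gap over 3; the lowest Ccnd2 value, 6.16, is in an array under that limit.

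In cortex the F test of a dose difference passed for no member (smallest adjusted p = 0.236, Ccnd3) and for 0.00322% of probe sets, and that of any change for none (smallest adjusted p = 0.354), against 0.00644%. The 0 h groups of the 2 doses differed in no member (0% of all probe sets, and 0 members against 4.35% at an unadjusted p below 0.05). All later groups against both 0 h groups gave no member, against 0.00322%. None of the G1/S, CDK inhibitor, p53, mitosis or S phase lists had a passing gene in cortex. The mitosis list's median change there ran between -0.06 and 0.03, beside -1.47 in liver at 48 h after 18 mg/kg. Its array means in cortex were 5.30 to 5.51, below the mean of 6 used as dimness limit. In liver they were 5.48 to 5.95 after the fall. Room for a fall in cortex was thus limited, and these values do not compare the response of the tissues.

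A test of whether the time courses differed between liver and cortex passed for no member, with 0.293% of probe sets passing at 3 mg/kg and 0.129% at 18 mg/kg. It treated the 48 arrays as independent, though the labels do not say whether both tissues came from the same rats. Mdm2 after 3 mg/kg came nearest, its liver change exceeding its cortex change by 0.99, 1.20 and 1.82 at 4, 24 and 48 h (adjusted p = 0.146). These differences share a liver 0 h group that holds a compressed array. Without the compressed arrays the liver changes themselves were 0.28, 0.61 and 1.23. Cdkn1a in liver was below cortex in change by -1.22 at 24 h after 18 mg/kg (adjusted p = 0.741 over the 3 times).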

How the data were processed

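Labelled RNA was hybridised to Affymetrix rat arrays. The deposited log2 values were made with RMA and Partek, per the submitters' processing notes, with no version given, and were used unchanged. The deposited arrays have nearly equal means but not equal distributions: liver medians run from 6.07 to 6.50 and liver SDs from 1.38 to 2.08. Of 31099 probe sets, 57 controls were left out. The platform annotation gave 1 symbol for 20826, several for 436 and none for 9780. Each tissue's 24 arrays were fitted in limma 3.58.1 (R 4.3.3) with 8 group means, and p-values were adjusted by Benjamini-Hochberg within each contrast (threshold 0.05, two-sided). Fits were tested on simulated data.

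The genes and lists were chosen with earlier results of these data known. Up to 4 genes of each list, those with the smallest adjusted p among the passing, are named, with the 3 genes most correlated with each member that passed in liver. The contrast of all later groups with both 0 h groups, and the alternatives for the mitosis count and for the list genes, were added after the values were seen. Alternatives were other scalings, a dimness filter (mean of 6), 1 probe set per gene, other variance models, array weights, covariates, pooled 0 h groups, left-out arrays and other probe sets. No array depth exists; the number of arrays limits precision. Pairing by replicate number was checked only within a tissue, between groups. Of 84 same-number pairs per tissue, 23 in liver and 25 in cortex had deviations correlating over 0.1, with median r of 0.006 and -0.044. Whether a liver and a cortex array of equal number came from the same rat was not examined.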

Additional observations from a re-analysis of the deposited data

How the results depend on the processing

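Of 25 counts recomputed under the alternatives, 553 values stayed within 1.5 times the reported count and 39 did not. Of 587 recomputed values of the 34 printed changes, 524 kept direction and side of the threshold, 8 lost the call, 25 gained one and 30 changed sign. Of the 74 other member changes, 41 changed sign under at least 1 alternative and 19 passed under at least 1, 15 with array weights. The weights used a gene-by-gene estimator, chosen after results were seen because the default estimator had not converged, and they rest the liver 3 mg/kg 0 h group mainly on 1 array (weights 2.16, 0.112 and 0.375). With weights, members called in liver numbered 3, 3 and 4 at 4, 24 and 48 h after 3 mg/kg, 2 between doses at 0 h, 4 for the dose difference and 5 for any change. In cortex they numbered 2, 7 and 2 after 3 mg/kg, 6 and 6 at 4 and 48 h after 18 mg/kg, 4 at 0 h, 7 for the dose difference and 7 for any change. The tissue difference at 3 mg/kg gave 3, and 35 mitosis genes were called. Of 31042 probe sets, 5940 then passed in liver at 4 h after 3 mg/kg, 6159 for the dose difference and 8573 for any change. In cortex 4010, 8015 and 5252 passed at 4, 24 and 48 h after 3 mg/kg. After 18 mg/kg 7759 and 5547 passed there at 4 and 48 h. Between the cortex 0 h groups 3819 passed, with 10637 for the dose difference and 10166 for any change. The tissue difference at 3 mg/kg had 9232. The member count at 48 h after 3 mg/kg in liver was 3 with quantile normalisation, 6 with the actin gap as covariate, 0 with pooled 0 h groups and 0 without the compressed arrays. The covariate gave 1 at 24 h and 2 between doses at 0 h, with 9781 and 8659 probe sets passing. All probe sets passing at 48 h numbered 14423 with the covariate, 2898 in the main fit and 0 with pooled 0 h groups. The cause was not tested.

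Leaving out single arrays gave 0 to 1 members in liver at 24 h and at 48 h after 3 mg/kg and at 0 h between doses, 0 to 3 in cortex at 48 h after 18 mg/kg, 0 to 2 for the cortex dose difference, 0 to 1 for any change there and for the tissue difference at 3 mg/kg, and 3 to 15 mitosis genes. All probe sets passing in liver at 48 h after 3 mg/kg then numbered 0 to 7764. They numbered 0 to 3777 at 24 h after 3 mg/kg and 0 to 4123 at 0 h between doses. In cortex they numbered 0 to 2146 at 48 h after 18 mg/kg, 0 to 1004 for the dose difference and 0 to 365 for any change. The tissue difference at 3 mg/kg had 1 to 3199. With the replicate number as a block 12 mitosis genes were called. The block changed no member count. The labels do not say that equal numbers pair arrays. Within their tissue, 10 of 24 liver and 3 of 24 cortex arrays correlated best with their own number.

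Of the 30 changes of sign, 15 came with another probe set. The third Mdm2 probe set, the second Aen probe set in liver and the second Cdkn1b probe set in cortex have means below the dimness limit of 6. The second Ccnd1 probe set gave -0.34, -1.27 and -1.19 after 3 mg/kg and 0.32 at 48 h after 18 mg/kg, and the third gave -0.17 at 24 h after 3 mg/kg and 0.069 at 48 h after 18 mg/kg. The third Mdm2 probe set gave -0.12, -0.36 and -0.18 in liver at 4, 24 and 48 h after 18 mg/kg and -0.26 and -0.45 in cortex at 24 and 48 h, where the second gave -0.25 at 48 h. The second Cdkn1b probe set gave -0.062 and -0.10 in cortex at 24 and 48 h after 3 mg/kg, and the second Aen probe set gave 0.37 in liver at 4 h after 18 mg/kg. Ccnd1 after 3 mg/kg was -0.22 at 24 h and -0.15 at 48 h with quantile normalisation, and -0.052 at 24 h with pooled 0 h groups. At 4 h after 18 mg/kg Ccnd1 was 0.19 with weights, 0.034 with the actin gap and 0.043 without the compressed arrays, and Cdkn1a 0.042 with the actin gap and 0.0087 without those arrays. Mdm2 at 24 h after 18 mg/kg was -0.28 with weights. Leaving out single arrays, Ccnd1 ranged over -0.053 to 0.44 at 24 h after 3 mg/kg and -1.51 to 0.043 at 4 h after 18 mg/kg, Cdkn1a over -0.98 to 0.0087 at 4 h after 18 mg/kg, and Mdm2 over -0.12 to 0.75 at 24 h and -0.17 to 0.54 at 48 h after 18 mg/kg. Groups of 3 arrays limit the precision of every value.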
